A study of Mus musculus with 2 samples.

Results

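Among the CpGs that were methylated in wt MEFs and unmethylated in βerko MEFs, 1119 lay between genes and outside promoters. They were chosen on 4 criteria, namely more than 80 % of reads methylated in wt MEFs, less than 20 % in βerko MEFs, at least 5 reads in both libraries, and an annotation by the authors with no promoter, exon or intron. The first 3 criteria were met by 5787 hypomethylated differentially methylated positions (DMPs), so that the intergenic ones made up 19.3 % of them (95 % Wilson confidence interval 18.3 to 20.4 %). Counting 1 DMP per run, a run being DMPs in which each lies within 500 bp of the next, the share was 25.8 % of 3023 runs. A position is 1 cytosine on 1 strand, and 826937 positions were covered in both libraries. The background share of hypomethylated positions among all covered positions was 0.728 %. It was 0.845 % among covered positions outside the gene models, and 1.55 % among those of them above 80 % in wt MEFs. The 5787 with at least 5 reads in both libraries made up 0.7 % of all covered positions, to which no read minimum was applied. For the opposite direction, hypermethylated positions, the share of all covered positions was 0.249 %. Since the same methylation values chose the CpGs, the contrast between the cell types is given as a description and no test was made.

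Mouse embryonic fibroblasts (MEFs) are cultured connective tissue cells taken from embryos. The wt MEFs carried a wildtype genotype and the βerko MEFs, labelled ESR2 -/-, were derived from mice in which oestrogen receptor β (ERβ, gene Esr2) had been knocked out, and both were of strain C57BL/6 and grown in the same medium. DNA methylation was read by reduced representation bisulfite sequencing (RRBS), with 1 library per cell type made from 3 pooled batches of DNA, so that differences between cultures and between cell lines cannot be told apart from the genotype. Expression was not measured in these libraries, and fibroblast markers could not be checked. Reads from PCR carry no molecular identifiers, and the intervals below cover counting error only.

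Most CpGs between genes are methylated in somatic cells, whereas CpG islands at gene starts are mostly free of methylation. Intergenic CpGs with low methylation often lie in enhancers, where bound transcription factors and active removal of methylated cytosine keep the level down, and in regions held by Polycomb complexes around developmental genes. Active removal runs through oxidation of methylcytosine by TET enzymes and excision by thymine DNA glycosylase (TDG). Bisulfite sequencing does not tell 5-methylcytosine from 5-hydroxymethylcytosine.

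The CpGs that lay closest together are shown first, because their sequences give the arrangement of CpGs on which the result rests. A cluster is at least 3 hypomethylated intergenic CpGs with gaps of at most 100 bp. The reference sequence of the 10 clusters with the most members is given on the plus strand of NCBIM37 (mm9), 5′ to 3′, named by the gene with the nearest transcript start among transcripts with a gene identifier, with the CpGs of the member positions in capitals.
Klf12, chr14:100685095-100685393: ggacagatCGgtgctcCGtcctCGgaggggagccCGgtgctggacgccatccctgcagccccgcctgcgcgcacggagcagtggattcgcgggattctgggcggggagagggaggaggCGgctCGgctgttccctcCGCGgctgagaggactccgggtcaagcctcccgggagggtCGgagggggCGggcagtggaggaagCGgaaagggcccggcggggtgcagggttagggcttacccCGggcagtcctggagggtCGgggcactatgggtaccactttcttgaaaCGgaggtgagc
Gata2, chr6:88144014-88144273: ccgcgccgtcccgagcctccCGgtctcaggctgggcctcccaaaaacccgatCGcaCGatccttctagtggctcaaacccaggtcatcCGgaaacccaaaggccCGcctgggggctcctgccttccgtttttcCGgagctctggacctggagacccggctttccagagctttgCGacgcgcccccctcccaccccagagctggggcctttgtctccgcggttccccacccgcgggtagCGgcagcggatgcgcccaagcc
5033428I22Rik, chr8:59807541-59807656: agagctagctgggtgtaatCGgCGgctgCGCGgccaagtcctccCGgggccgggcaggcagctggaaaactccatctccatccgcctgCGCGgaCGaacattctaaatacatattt
2900024J01Rik, chr1:182698431-182698594: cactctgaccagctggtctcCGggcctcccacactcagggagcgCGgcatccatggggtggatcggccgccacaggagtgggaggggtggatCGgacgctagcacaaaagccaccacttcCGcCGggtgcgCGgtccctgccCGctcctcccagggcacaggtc
4933407K13Rik, chrX:72918867-72918954: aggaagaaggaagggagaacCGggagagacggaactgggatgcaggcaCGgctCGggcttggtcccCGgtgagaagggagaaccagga
Fam101a, chr5:125444430-125444519: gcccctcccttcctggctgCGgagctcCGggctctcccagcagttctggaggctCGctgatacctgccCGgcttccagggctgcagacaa
Efna2, chr10:79653321-79653401: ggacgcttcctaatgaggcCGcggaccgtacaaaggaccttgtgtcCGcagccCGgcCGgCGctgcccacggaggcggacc
Nkain1, chr4:130185218-130185326: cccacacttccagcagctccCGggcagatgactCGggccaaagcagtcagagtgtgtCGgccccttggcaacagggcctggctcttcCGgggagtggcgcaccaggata
Gtdc1, chr2:44412422-44412605: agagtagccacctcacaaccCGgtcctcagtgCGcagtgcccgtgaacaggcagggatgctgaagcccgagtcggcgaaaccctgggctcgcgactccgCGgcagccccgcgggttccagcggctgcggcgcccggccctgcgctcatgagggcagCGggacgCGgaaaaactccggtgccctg
Cbx8, chr11:118895993-118896054: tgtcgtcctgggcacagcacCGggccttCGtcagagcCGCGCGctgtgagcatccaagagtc
At Klf12, 14 of the 26 CpGs in the 299 bases shown were members, 16 were covered in both libraries, and the sequence had a GC content of 70.2 %. At Gata2, 8 of 23 CpGs were members and 17 were covered. At 5033428I22Rik, 8 of 10 CpGs were members, and these were all the CpGs covered in the window. The 4 CpGs at Fam101a were all members, whereas at Gtdc1 5 of 21 were members and 14 were covered. MspI cuts at CCGG, and each of the 10 windows held at least 1 such site, the one at Klf12 holding 5.

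Methylation of the 1119 positions ran from 80.2 to 100 % in wt MEFs, with a median of 92.6 %, and from 0 to 19.8 % in βerko MEFs, with a median of 10.9 %. In wt MEFs, 287 positions were methylated in every read, and in βerko MEFs 114 had no methylated read. At 46 positions both held. Pooled over all members, 91.3 % of the 34434 wt reads and 10.4 % of the 54928 βerko reads were methylated. The median difference was -81.8 percentage points, and the exact 95 % intervals of the libraries did not overlap at 1080 positions. At the edges of the rule, 73 members were at or below 82 % in wt MEFs and 127 at or above 18 % in βerko MEFs. Just outside, counted among covered positions outside the gene models and without a minimum of reads, 130 positions had 78 to 80 % in wt and less than 20 % in βerko MEFs, and 225 had more than 80 % in wt and 20 to 22 % in βerko MEFs.

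Coverage was lower in wt MEFs, with a median of 24 reads (5 to 130), than in βerko MEFs, with a median of 47 reads (5 to 159). It was higher in βerko MEFs at 932 members (83.3 %), and the median ratio of βerko to wt coverage was 1.6. At hypermethylated intergenic DMPs, which are unmethylated in wt and methylated in βerko MEFs, median coverage was 35 (wt) and 34 (βerko) and the ratio was 0.915. The library with less methylation thus had more reads at the hypomethylated positions, and the part of coverage in the result was not tested. At least 10 reads in both libraries were available for 934 members and at least 20 reads for 638. A further 43 intergenic positions met the methylation thresholds with 4 reads in a library and were not counted.

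The most deeply covered members show what single positions look like when reads are many. Near Eif3h, which encodes a subunit of a translation initiation factor and starts 134153 bp away, 121 of 124 reads were methylated in wt and 17 of 159 in βerko MEFs. Near Naif1, 95 of 101 reads were methylated in wt and 7 of 126 in βerko MEFs, giving 94.1 % (exact interval 87.5 to 97.8 %) and 5.56 % (2.26 to 11.1 %). The one covered position within 100 bp of it had 27.0 % in wt and 79.2 % in βerko MEFs, the opposite direction. Near Bmper, which encodes a secreted regulator of bone morphogenetic proteins, 86 of 104 reads were methylated in wt and 13 of 121 in βerko MEFs. Positions near Slc45a4, with 110 of 130 reads against 31 of 157, and near Pea15b, with 85 of 101 against 14 of 128, completed the 5 deepest. The covered neighbour at Slc45a4 had 59.3 % in wt and 64.9 % in βerko MEFs, and the remaining 3 members had no covered position within 100 bp. Their wt and βerko intervals did not overlap at any of these 5 positions. At the other end, at the positions near Gm9937 and Mgmt all of 5 reads were methylated in wt and none of 5 in βerko MEFs, where the exact interval runs from 47.8 to 100 % in wt and from 0 to 52.2 % in βerko MEFs so that the intervals overlap.

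Closest to the thresholds were a position near Kif4b, with 73 of 91 reads methylated in wt (80.2 %), and a position near Msx2, with 19 of 96 reads methylated in βerko MEFs (19.8 %). The interval at Kif4b ran from 70.6 to 87.8 % in wt MEFs, and that at Msx2 from 12.4 to 29.2 % in βerko MEFs, so that counting error alone could place either on the other side of its threshold.

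Most members stood alone. Of the 1119 positions, 695 (62.1 %) had no other member within 100 bp, 88 pairs were found, and 248 (22.2 %) lay in 60 clusters. The positions belonged to 1083 CpGs in 783 runs. Hypermethylated intergenic DMPs formed 7 clusters with 25 of 766 positions (3.26 %), while hypomethylated promoter, exonic and intronic DMPs had 45.9, 50.1 and 24.8 % of their positions in clusters. Neighbouring positions are read in part from the same fragments and are not replicates of each other.

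The largest cluster, upstream of Klf12, spanned 281 bp at chr14:100685104-100685384 and held 14 members at 1498 to 1778 bp from the transcript start. Klf12 encodes a zinc finger repressor of the Krüppel-like family. Methylation in wt MEFs was 83.3 to 100 %, read from 6 to 18 reads per position, and in βerko MEFs 0 to 13.6 %, from 49 to 93 reads. The mean difference in the cluster was -92.3 points. With 2 further members, Klf12 had 16 in 1 run, more than any other gene. In the GENCODE models the nearest start to the cluster was that of Gm16260, 66399 bp away, and no start of Klf12 lay within 135979 bp of a member. Within 500 bp on either side of the cluster, 8 covered positions that were not members averaged 24.4 % in wt and 1.74 % in βerko MEFs. The wt library was thin here, whereas the βerko library was deep. At the start of Klf12 used by the authors, 14 positions averaged 0.340 % in wt and 0.704 % in βerko MEFs, so that the start was unmethylated in both.

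Gata2 encodes a transcription factor of blood progenitors. Its cluster at chr6:88144034-88144253 held 9 members on 8 CpGs, with 92.6 to 100 % in wt and up to 19.7 % in βerko MEFs, the median coverage being 54 and 76 reads. The 17 covered positions inside the cluster averaged 90.6 % in wt and 16.4 % in βerko MEFs, and the 4 positions within 500 bp outside it that were not members averaged 91.7 and 19.8 %. The authors' annotation placed the cluster 4075 to 4294 bp upstream of the Gata2 transcript, but in the GENCODE gene models all 9 members lay inside a longer Gata2 gene, the nearest 149 bp from one of its starts. At the start used by the authors, 29 positions averaged 3.26 and 1.78 %.

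The 8 members of the cluster at 5033428I22Rik, an uncharacterised transcript, lay within 76 bp and averaged 94.4 % ± 7.10 (SD over CpGs) in wt and 1.94 % ± 2.19 in βerko MEFs. There were 4 further members within 500 bp of it, and 10 covered positions that were not members averaged 78.6 % in wt and 24.8 % in βerko MEFs. The transcript's own start, with 5 positions, averaged 90.8 and 75.6 %. At 2900024J01Rik, the 7 members averaged 94.8 and 3.96 %, while the start of that transcript, with 13 positions, was unmethylated in both, at 1.33 and 1.39 %. The cluster on chromosome X near 4933407K13Rik, with 7 members on 4 CpGs within 48 bp, averaged 92.9 and 4.74 %, and lay more than 90 kb from the transcript named, at 91103 to 91150 bp.

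The 4 clusters of 5 members with the largest differences after these belonged to Efna2, Nkain1, Gtdc1 and Cbx8, and a cluster of 7 members belonged to Fam101a. Efna2, an ephrin ligand, had at least 87.5 % in wt and at most 6.25 % in βerko MEFs, but its positions had a median of 8 wt reads. Nkain1, a partner of the sodium pump, averaged 93.6 and 4.35 % with median coverage of 25 and 96 reads. Gtdc1 averaged 97.8 and 8.65 %, and Fam101a 93.8 and 11.97 %. The start of Gtdc1 in the authors' annotation lay 303261 bp away, but in the GENCODE models a start of Gtdc1 lay 14282 bp away. At Cbx8, which encodes a chromodomain subunit of Polycomb repressive complex 1, the 5 CpGs lay within 22 bp and averaged 97.5 and 8.40 %, with at least 16 reads in wt and 54 in βerko MEFs. In the Gtdc1 cluster, the 15 covered positions averaged 73.5 % in wt MEFs, lower than its members.

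**Figure D1:**
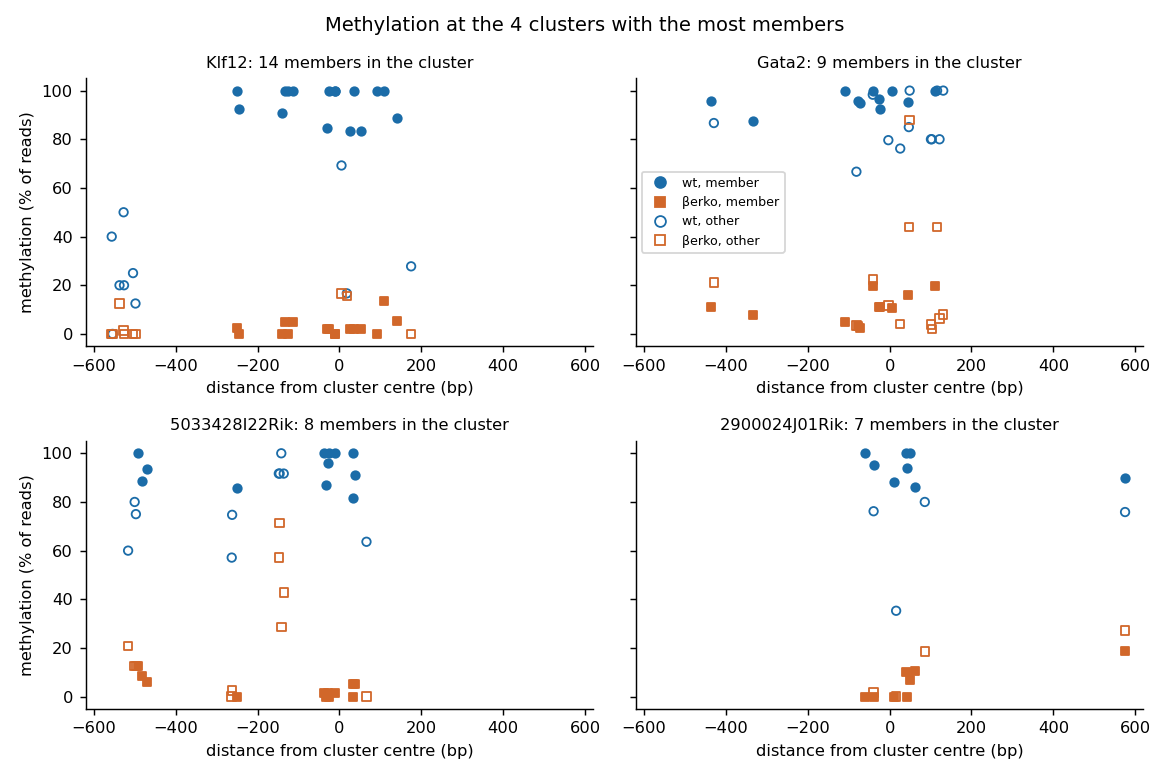
Percentage of methylated reads (vertical axis) at covered positions within 600 bp of the centre of the 4 clusters with the most members, against distance in bp. Circles are wt and squares βerko MEFs, 1 library each, filled symbols are members and open symbols other covered positions. At Klf12, 16 of 26 positions shown are members and wt values fall on the left, where open circles lie at 50 % or less. Open squares well above the others mark positions of 5033428I22Rik that stayed partly methylated in βerko MEFs.

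The members were assigned to 719 genes by the nearest transcript with a gene identifier, and 4 members had none. Of these genes, 554 had 1 member, 81 had 2, and 84 had 3 or more. The 27 genes with 5 or more members together held 208 positions. After Klf12, the genes with the most members were Pitx1 with 14, 5033428I22Rik with 12, Msx1 and Gata2 with 11, Foxb2 with 10, Cbx8, Zfp423 and 4933407K13Rik with 9, and 2900024J01Rik, Fam101a and Gm13352 with 8. Klf12, Pitx1 and 5033428I22Rik each held their members in 1 run, whereas those of Msx1 fell into 4.

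Pitx1 encodes a homeodomain factor of the hindlimb. Its 14 members lay 4673 to 5743 bp upstream of the transcript start and averaged 93.9 % ± 5.16 (SD over CpGs) in wt and 7.84 % ± 4.99 in βerko MEFs. In wt MEFs the values ran from 82.8 to 100 % and in βerko MEFs from 0 to 17.5 %. The deepest wt position had 51 of 51 methylated reads against 6 of 42 in βerko MEFs. The covered position within 100 bp of it was 98.0 % methylated in wt and 97.6 % in βerko MEFs. In the GENCODE models the same members lay 94 to 976 bp from a start of Pitx1, and 1 lay inside the gene. A further 30 hypomethylated DMPs at Pitx1 were exonic. The paper reports a hypermethylated DMP in the promoter region of Pitx1, so that the locus held changes in both directions. At the start used by the authors, 37 positions averaged 53.9 % in wt and 36.8 % in βerko MEFs.

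Msx1, a homeobox repressor of craniofacial and limb mesenchyme, had 11 members from 3582 to 77681 bp upstream. The 7 positions in the run nearest but one to the gene included a deeply covered one with 67 of 79 reads methylated in wt (84.8 %) and 13 of 114 in βerko MEFs (11.4 %). A separate member lay 27026 bp upstream, with 29 of 29 reads methylated in wt and 7 of 86 in βerko MEFs. The median coverage of Msx1 members was 11 reads in wt and 31 in βerko MEFs. The start of Msx1, with 24 positions, was at 6.98 and 5.82 %.

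Foxb2, a forkhead factor, had members on both sides of its start, 7 downstream of the gene's start and 3 upstream, at 1805 to 3219 bp. They averaged 90.7 % in wt and 8.72 % in βerko MEFs with median coverage of 48.5 and 71.5 reads. The position with the most reads had 75 of 78 methylated in wt and 2 of 94 in βerko MEFs. Zfp423, a zinc finger factor expressed in preadipocytes, had 9 upstream members, 8 of them within 2285 bp of the start, with a median of 8 wt and 26 βerko reads. They averaged 90.6 and 8.62 %. The start of Zfp423, with 50 positions, was at 11.1 and 1.11 %.

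Cbx8 fell in the 1 Mb window with the most runs of members, from 118000001 to 119000000 on chromosome 11, which held 18 members in 7 runs. Members of the window included those of Timp2, an inhibitor of matrix metalloproteinases, and Enpp7, an intestinal sphingomyelinase. Members occurred in 556 such windows, which differ in their number of covered positions outside the gene models. The window of Cbx8 held 434 of these positions. That of Msx1 on chromosome 5 held 182, with 12 members in 5 runs. The window from 114000001 to 115000000 on chromosome 12 held 151, with 8 members in 5 runs. The start of Cbx8 was at 0 % in both cell types over 8 positions.

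Gene lists of transcription factor families and pathways placed 217 members (19.4 %) in 95 genes. No background share was counted for all lists pooled, so that this value has nothing to be set beside. The lists were chosen with earlier results of these data known. The homeobox genes outside the Hox clusters had the most, 69 members in 27 genes, or 6.17 % of the members, against 2.87 % of the hypermethylated intergenic DMPs, and lay in 36 runs, or 4.60 % of the runs, with the 14 of Pitx1 in 1 run. By the nearest start in the GENCODE models, 58 of the 972 members outside those models (5.97 %, or 5.48 % with 1 per run) belonged to this list, beside 2.35 % of covered positions outside the models and 1.505 % of those above 80 % in wt MEFs. Both backgrounds were counted by position and not reduced to 1 per run, so that the shares with 1 per run have no like background. After Pitx1 and Msx1 came Barx1, a factor of stomach and craniofacial mesenchyme, with 5 members, and Pou3f2, a neural factor, with 4. Barx1 averaged 97.2 % in wt and 13.03 % in βerko MEFs, and its farthest member, 82644 bp from the start, had 63 of 64 reads methylated in wt and 14 of 71 in βerko MEFs. Barx1 also had 4 hypermethylated intergenic DMPs and 6 hypomethylated promoter DMPs. Its start averaged 78.5 % in wt and 35.3 % in βerko MEFs over 61 positions.

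Fox genes had 24 members in 8 genes. By the nearest GENCODE start, 2.06 % of members outside the models belonged to this list, or 1.15 % with 1 per run. Among covered positions outside the models the share was 0.368 %, and 0.240 % among those above 80 % in wt MEFs. The lists below are set beside both backgrounds, again counted by position, in the same way and order. Beside Foxb2, Foxp2 had 5, at 1155 to 1373 bp upstream, and Foxc1, a factor of mesenchyme, had 4. By the authors' annotation, the member nearest to a transcript start was one of Foxc1, 504 bp upstream, where 28 of 29 reads were methylated in wt (96.6 %) and 1 of 82 in βerko MEFs (1.22 %). The start of Foxc1 itself, with 55 positions, was at 5.02 and 0.388 %. Foxa1, an endodermal factor, had 1 member.

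Zinc finger developmental factors had 28 members in 8 genes, of which Klf12 accounted for 16. By GENCODE start the share of the list was 1.44 % (1.30 % with 1 per run), beside 0.708 and 0.598 %. Osr2, a factor of palate and limb mesenchyme, had 4, all more than 30 kb downstream of the start, and Zic2 had 2. The basic helix-loop-helix genes had 17 members in 10 genes, with 4 at Hes1, a Notch target, and 3 each at Neurog2 and Id3. Their share by GENCODE start was 1.44 % (1.44 % with 1 per run), beside 0.778 and 0.510 %. Ascl2 had 1. Tcf7, an HMG-box factor with 1 member, was counted both here and among the Wnt genes. The deepest member of Hes1 had 82 of 94 reads methylated in wt and 8 of 57 in βerko MEFs. Gata genes had 14 members, 11 at Gata2 and 3 at Gata3, all in 3 runs. Their share by GENCODE start was 0.309 % (0.288 % with 1 per run), beside 0.0721 and 0.0800 %.

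Sox genes had 7 members in 6 genes, with 2 at Sox6, the others having 1. By GENCODE start the share of the list was 0.823 % (0.576 % with 1 per run), beside 0.158 and 0.115 %. T-box genes had 6 members, 3 of them at Tbx3, a limb factor, where wt methylation averaged 87.1 % and βerko 1.52 % with median coverage of 53 and 110 reads. Those 3 positions lay inside a gene of the GENCODE models. The share of T-box genes by GENCODE start was 0.309 % (0.432 % with 1 per run), beside 0.193 and 0.148 %. Pax genes had 5 members, 4 at Pax2, with a share by GENCODE start of 0.412 % (0.288 % with 1 per run), beside 0.188 and 0.0373 %. The Hox clusters had 2 members, at Hoxc12 and Hoxd9, and also 2 hypermethylated intergenic DMPs, or 0.179 and 0.261 % of each. Their share by GENCODE start was 0.103 % (0.144 % with 1 per run), beside 0.107 and 0.0296 %.

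Among signalling genes, the Wnt list had 12 members in 8 genes, with 4 at Wnt3, a Wnt ligand, 2 at Wnt2, and 1 each at Dkk2 and Sfrp1, which are secreted antagonists. The Wnt3 members lay 520 to 1364 bp upstream and averaged 93.9 and 4.77 %. The start of Wnt3 averaged 43.8 % in wt and 8.46 % in βerko MEFs over 25 positions. The share of the Wnt list by GENCODE start was 1.03 % (1.15 % with 1 per run), beside 0.433 and 0.362 %. The FGF list had 10 members in 7 genes, with 4 at Fgfr3, a receptor, and 1 each at Dusp26 and Fgf8, a ligand. Its share by GENCODE start was 1.13 % (1.59 % with 1 per run), beside 0.474 and 0.510 %. The list of TGF-beta and BMP pathway genes had none by the authors' annotation and 3 by the nearest GENCODE start (0.309 %, beside 0.404 and 0.440 %). Bmper, named above, was not in that list.

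Fibroblast matrix genes had 16 members in 8 genes, with 3 each at Loxl4, which crosslinks collagen, Timp2 and Thbs2, and 2 at Col5a1, a collagen chain. By GENCODE start the share of the list was 1.75 % (1.30 % with 1 per run), beside 0.335 and 0.406 %. Imprinted genes had 6, with 4 at Cdkn1c, a cell cycle inhibitor, and 2 at Dlk1, a preadipocyte protein. Their share by GENCODE start was 0.617 % (0.576 % with 1 per run), beside 0.216 and 0.196 %. At Cdkn1c the βerko library had a median of 7 reads. Nuclear receptors had 2, at Esr2 and Rxrg, the latter with 7 wt and 5 βerko reads. They also had 2 hypermethylated intergenic DMPs, the shares being 0.179 and 0.261 %. By GENCODE start the share of the list was 0.412 % (0.432 % with 1 per run), beside 0.348 and 0.298 %.

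Esr2, the targeted gene, had 1 intergenic member at 77279568 on chromosome 12, 1322 bp upstream, with 10 of 10 reads methylated in wt and 6 of 31 in βerko MEFs. The 5 other covered positions within 100 bp averaged 80.1 % in wt and 65.4 % in βerko MEFs. Hoxd9 had 1, 969 bp upstream, with 16 of 19 reads in wt and 6 of 55 in βerko MEFs. It lay within the gene Gm14396 of the GENCODE models, and Hoxd9 had 43 hypomethylated promoter DMPs. The start of Hoxd9 averaged 94.6 % in wt and 1.41 % in βerko MEFs. No members were assigned to Esr1, Tdg, Slc2a4, Dyx1c1, Hoxa9, Hoxa10 or Tnfaip2.

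The distance from a member to the nearest transcript start had a median of 11154 bp, with quartiles of 3712 and 31105 bp. With 1 member per run the median was 14221 bp. Hypermethylated intergenic DMPs lay farther out, at a median of 25490 bp. To GENCODE starts, the medians were 12954 bp for members and 25126 bp for hypermethylated intergenic DMPs. Covered positions outside the gene models, which leave out those within 1000 bp of a start, had 24065.5 bp, and those above 80 % in wt MEFs 26936.5 bp. Of the members, 97 (8.67 %) were closer than 1 kb, 416 (37.2 %) lay between 10 and 50 kb, and 63 (5.63 %) at 100 kb or more. The farthest was near Sis, which encodes sucrase-isomaltase, at 452284 bp, with 72 of 77 reads methylated in wt and 15 of 83 in βerko MEFs. Upstream of the start lay 728 members (65.1 %) and downstream 391, and the share upstream was 58.9 % for hypermethylated intergenic DMPs. At 194 members the nearest transcript had no gene identifier. By the GENCODE models, 58 members lay inside a gene, 114 within 1000 bp of a start, and 972 were intergenic in the stricter sense of neither.

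**Figure D2:**
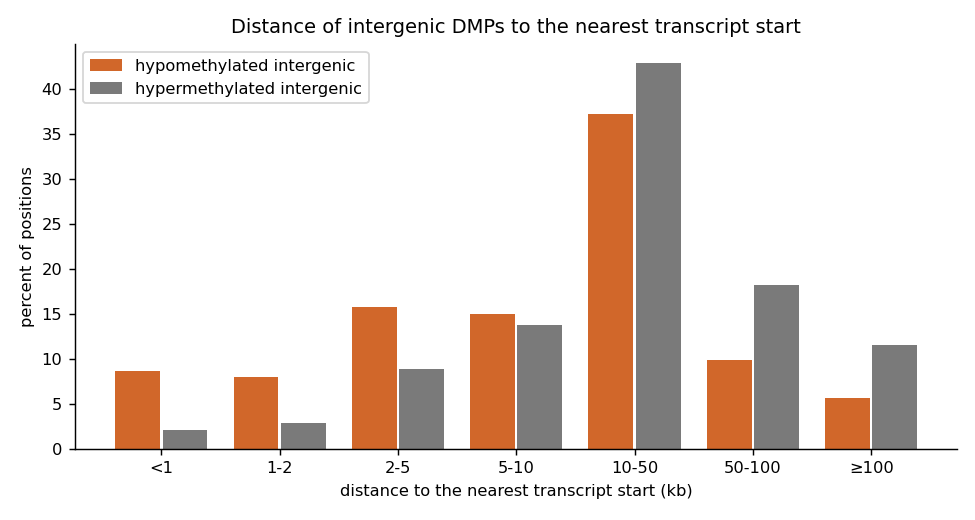
Share of positions (vertical axis, percent) by distance to the nearest transcript start in kb (horizontal axis, bins of unequal width) for 1119 hypomethylated intergenic CpGs and 766 hypermethylated intergenic DMPs. Hypomethylated CpGs have the higher bars below 10 kb, such as 15.7 against 8.88 % between 2 and 5 kb, and the lower ones beyond.

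The change extended to other covered positions near the members. Within 100 bp, 940 members (84.0 %) had at least 1 other covered position, with a median over members of 79.6 % in wt and 24.0 % in βerko MEFs and a median difference of -44.0 points. With hypomethylated DMPs left out, 864 members had such positions, at 71.1 and 30.3 %, and the difference was -32.6 points. At 400 of the 940 members (42.6 %) the neighbours, hypomethylated DMPs included, were lower by more than 50 points in βerko MEFs. At 244 (25.96 %) they differed by less than 20 points or in the other direction. With hypomethylated DMPs left out, these counts were 220 (25.5 %) and 290 (33.6 %) of 864. Around hypermethylated intergenic DMPs, the neighbours differed by 19.1 points in the opposite direction. These positions come from the same libraries and partly the same reads as the members.

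By distance, mean methylation around members was 77.1 % in wt and 27.0 % in βerko MEFs at 1 to 25 bp, 60.6 and 33.9 % at 201 to 500 bp, and 53.5 and 42.1 % at 1001 to 2000 bp. From 2001 to 5000 bp it was 60.7 and 55.98 %, and beyond 10 kb 56.3 and 54.1 %. With 1 member per run the values were 72.7 and 33.9 % at 1 to 25 bp, 56.4 and 41.0 % at 201 to 500 bp, and 52.8 and 45.1 % at 1001 to 2000 bp, so that the gaps were smaller. The difference between the libraries narrowed with distance and was largest beside the members. Other hypomethylated DMPs were not left out of these means, and the thresholds had fixed their values. Part of the gap near the members was thus set by the rule, and no profile without these DMPs was made.

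**Figure D3:**
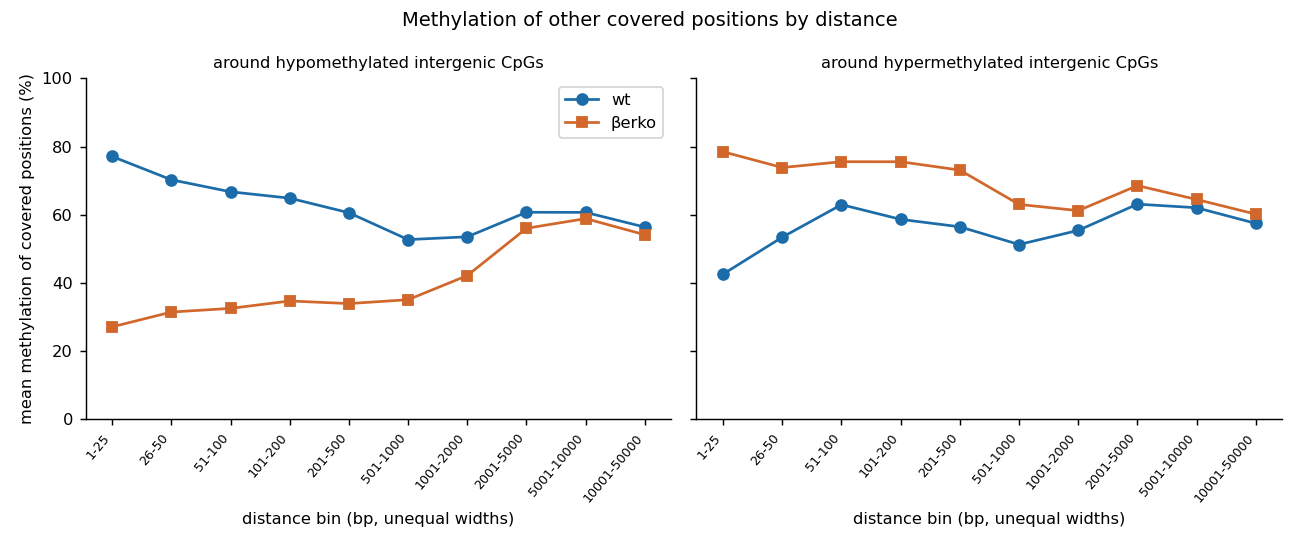
Mean methylation (vertical axis, percent) of other covered positions in bins of distance in bp (horizontal axis, unequal widths), around hypomethylated intergenic CpGs (left) and hypermethylated intergenic DMPs (right), with circles for wt and squares for βerko MEFs. On the left the curves lie 50 points apart next to the member, at 77.1 and 27.0 %, and meet to within 5 points beyond 2 kb. The positions include other DMPs, whose values the thresholds had fixed.

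Some members stood out against their surroundings. The rule took members with at least 5 other covered positions within 100 bp, of which there were 363, and named the 5 whose neighbours were most methylated in βerko relative to wt MEFs. They lay near Tmco6, Tcf15, Neurog2, Macf1 and Gm3492. At Tmco6, 49 of 55 reads were methylated in wt and 10 of 59 in βerko MEFs, but the 6 neighbours averaged 45.0 % in wt and 59.7 % in βerko MEFs. At Tcf15, a mesodermal helix-loop-helix factor, the member had 5 of 5 wt and 4 of 35 βerko reads, and 8 neighbours averaged 52.6 and 58.8 %. At Neurog2, a neuronal factor of the same family, 36 of 42 and 10 of 51 reads were methylated, and 7 neighbours averaged 27.9 and 33.9 %. The plus strand of NCBIM37 around these last members, with the member CpG in capitals and 50 bases on either side, shows how many other CpGs lie beside it.
Tcf15, chr2:151957926-151958026: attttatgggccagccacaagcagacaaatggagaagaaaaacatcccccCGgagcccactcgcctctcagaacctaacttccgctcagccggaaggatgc
Neurog2, chr3:127342858-127342958: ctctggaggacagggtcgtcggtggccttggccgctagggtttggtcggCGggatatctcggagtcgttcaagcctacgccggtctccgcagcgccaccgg
The window at Neurog2 held 12 CpGs, of which 6 were covered and 1 was a member. That at Tcf15 held 4, all covered, of which 1 was a member and lay in a CCGG site.

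The opposite strand of the same CpG was covered for 154 members. At 36 CpGs both strands were members, which accounts for 72 of these and was fixed by the rule. The opposite strand of the remaining 82 was not a member, had medians of 80 % in wt and 22.1 % in βerko MEFs, and was lower in βerko MEFs at 75. At 1 of them it passed both thresholds. Members lay on the plus strand at 545 positions and on the minus strand at 574.

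Where the transcript starts of the members' genes were covered, most were unmethylated in both cell types. At least 5 covered positions within 500 bp of the start were available for 347 starts, those of 589 members (52.6 %). Medians over these starts were 5.43 % in wt and 2.36 % in βerko MEFs. The starts of other genes were not counted, so that no background share can be set beside these values. Of these starts, 239 (68.9 %) were below 20 % in both cell types, 37 (10.7 %) were lower by 20 points or more in βerko MEFs, and 12 were above 80 % in both. A hypomethylated DMP of a promoter, exon or intron lay within 500 bp of 23 members (2.06 %) and within 5 kb of 97 (8.67 %). A hypermethylated DMP lay within 5 kb of 15 (1.34 %). The same shares were not counted for covered positions outside the gene models.

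The 201 bases around the members had a median GC content of 55.7 % and held a median of 7 CpGs. With 1 member per run the medians were 54.2 % and 6. Those around hypermethylated intergenic DMPs had 52.2 % and 4 CpGs, and those around hypomethylated promoter DMPs 66.7 % and 17. Hypomethylated intronic DMPs, at 57.7 % and 8, were closer to the members. Covered positions outside the gene models had 53.7 % and 6, and those above 80 % in wt MEFs 52.2 % and 5. A window was called CpG rich when its GC content was over 50 % and its observed number of CpGs over 0.6 of that expected from its bases. That held for 325 members (29.0 %), for 22.7 % of covered positions outside the gene models and 13.7 % of those above 80 % in wt MEFs, for 34.98 % of hypomethylated intronic DMPs, for 5.22 % of hypermethylated intergenic DMPs, and for 73.3 % of hypomethylated promoter DMPs. With 1 member per run the share was 19.2 %. In the authors' annotation, 8 members overlapped a transcription start region and 1 a repeat. At 672 members (60.1 %) the CpG was that of an MspI site, against 54.0 % of covered positions outside the gene models and 59.0 % of those above 80 % in wt MEFs.

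Sequence words were counted on both strands within 100 bp, and each share of members is set beside that of covered positions outside the gene models, first all of them and then those above 80 % in wt MEFs, as the members were. The palindromic oestrogen response element, with at most 1 mismatch, occurred at 5 members (0.447 %), beside 0.577 and 0.604 %. Its core AGGTCA occurred at 107 (9.56 %), beside 10.1 and 10.5 %. The AP2 word GCCNNNGGC occurred at 126 (11.3 %), beside 11.999 and 8.85 %, and the CTCF core at 3 (0.268 %), beside 0.656 and 0.170 %, so that for both the order depended on the background. The E-box CAGCTG occurred at 154 (13.8 %), beside 11.9 and 11.3 %. The NRF1 word occurred at 3 (0.268 %), beside 0.0620 and 0.0647 %, but with 1 member per run at 0.128 %. The AP-1 word TGANTCA, which was added after the others had been counted, occurred at 63 (5.63 %), beside 4.70 and 4.62 %. Matches are descriptions of the letters and not of binding.

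Members were spread over all chromosomes. Members follow the authors' annotation and covered positions the gene models, so that the ratio compares chromosomes and is no share. Per 1000 covered positions outside the gene models there were 6.67 members, with 10.7 on chromosome 11, 9.78 on chromosome 4 and 9.44 on chromosome X, and the fewest, 1.84, on chromosome 9. Counted in runs, the values were 7.30, 6.81, 6.42 and 1.73 against 4.67 over all chromosomes. Chromosome 12, which carries Esr2, had 7.94 members and 6.95 runs, more runs than chromosomes 4 and X. Chromosome 9 held 16 members and 48 hypermethylated intergenic DMPs, while chromosome 4 held 102 and 120. Mean methylation of covered positions outside the gene models on chromosome 9 was 66.0 % in wt and 67.1 % in βerko MEFs, beside 67.8 and 68.0 % over all chromosomes. Chromosome Y held 1 member.

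**Figure D4:**
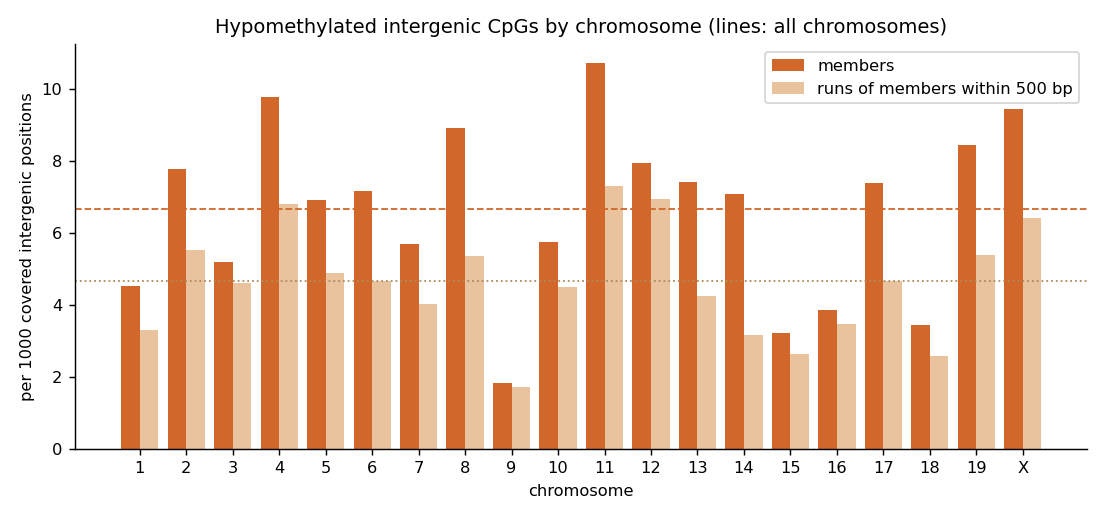
Hypomethylated intergenic CpGs per 1000 covered positions outside the gene models (vertical axis) on each chromosome (horizontal axis, Y with 1 member left out), as single members and as runs of members within 500 bp. Dashed and dotted lines give the values over all chromosomes, 6.67 and 4.67. Chromosome 11 is highest and chromosome 9 lowest in both counts.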

How the data were processed

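The authors prepared 1 RRBS library per cell type, wt and βerko MEFs. MspI fragments were ligated to sequencing adapters, cut from a gel at 160 to 340 bp with the adapters attached, treated with bisulfite and sequenced. Reads were mapped with the Genomatix Mining Station, and CASAVA 1.4 and mm9 are named in the submitters' processing notes. The authors deposited the percent of methylated reads for each position covered in both libraries and, for DMPs, the read counts (coverage) of each library with a RegionMiner annotation. The depth of other positions was not analysed here. Methylated reads were recovered from percent and coverage.

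DMPs with 5 or more reads per library were joined to their annotation, and positions were checked to be CpG cytosines on NCBIM37. Gene models were GENCODE. Backgrounds were covered positions outside every gene and more than 1000 bp from every start. Intervals were exact for positions and Wilson for shares, at 95 %. The members, gene lists and rules for named genes were chosen with earlier results of these data known. Named were the 10 largest clusters, the 12 genes with the most members, the 5 deepest members, list members, members at the thresholds and extremes of distance, members at target genes, and 5 members whose neighbours did not follow. Procedures were tested on simulated data. Python 3.11.15, NumPy 2.4.6, pandas 2.3.3, SciPy 1.17.1 and matplotlib 3.10.9 were used. Some genes are not reported here.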

Additional observations from a re-analysis of the deposited data

How the results depend on the processing

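No paired analysis was possible because each cell type had 1 library, and no library could be left out. The number of members was 1162 with at least 4 reads, 934 with 10 and 638 with 20, 295 with more than 90 % in wt and less than 10 % in βerko MEFs, 1083 with strands merged, 1373 with GENCODE used for all hypomethylated DMPs, 1068 without chromosomes X and Y, and 783 with 1 member per run. The median was 91.7 % in wt and 11.3 % in βerko MEFs with at least 20 reads, and 11.8 % in βerko MEFs with 1 member per run. Of the 60 clusters, 17 had at least 5 members. The share of members among hypomethylated DMPs rose to 25.8 % per run. The CpG rich share was 36.5 % within 50 bp and 19.2 % per run. Within 50 bp the words were rarer, as the window is shorter, with 0 % for CTCF, 0.179 % for the oestrogen response element, 4.74 % for its core, 6.34 % for AP2, 7.15 % for the E-box, 0 % for NRF1 and 2.95 % for AP-1. With 1 member per run, NRF1 was at 0.128 %. The difference of neighbours was -48.5 points within 50 bp, -33.4 within 500 bp and -32.6 with hypomethylated DMPs left out. Thin coverage, a single library per cell type and the missing depth of other positions limit these results.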
